A study of Mus musculus with 12 samples.

Results

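The gene module described here comprises 38 transcripts that are known mainly from macrophages and other myeloid phagocytes. The members were listed by gene symbol or by an older name on the array (such as Emr1 for Adgre1, Sfpi1 for Spi1 and C1qg for C1qc). The rule uses no measured value of a contrast, but the list was drawn up with earlier results of these data known. All 38 had a probe. Each gene was represented by its brightest probe and kept where this probe stood well above background on 3 or more of the 12 arrays, which left 36 members among 15561 features tested. Cd163, a scavenger receptor for haemoglobin complexes, and Nos2, the inducible nitric oxide synthase, were well above background on 0 arrays and were not tested.

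Macrophages are tissue phagocytes whose survival depends on the CSF1 receptor. They bind antibody-coated, complement-coated or modified particles through Fc, complement and scavenger receptors, and digest what they engulf with lysosomal cathepsins and lysozyme. Their gene programme is set up by the transcription factor PU.1, which is encoded by Spi1, and macrophages are commonly abundant among the leukocytes of transplanted tumours. Regulatory T cells (Treg) are CD4 T lymphocytes that express the transcription factor Foxp3, and most of the transcripts described here are not known as Treg genes. Some members, the cathepsins among them, are made by many cell types.

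RNA was measured from Treg sorted by flow cytometry from C57BL/6 reporter mice, with 3 arrays in each of 4 groups. The IL10- and IL10+ tumour groups came from VERT-X mice, in which EGFP reports Il10, and the total tumour and spleen groups from FoxP3-EGFP mice, in which EGFP reports Foxp3. Tumours were MC38 colon carcinomas grown under the skin of syngeneic mice, pooled at 2 weeks and digested, whereas spleens came from mice that carried no tumour. All 4 groups passed a gate for CD45+, CD11b-low, CD3+ and CD4+ cells. The next gate was EGFP in FoxP3-EGFP mice but CD25+ with CD120b+ or CD120b-low in VERT-X mice, so strain and gate cannot be told apart between those mice. CD11b is the product of the member Itgam, and the gate admitted cells low for it. The age of the mice is not stated in the labels used here. The labels give 3 experiments for each population but do not say that each array came from separate animals, so p-values measure the spread between these arrays, which may be partly technical. In RNA of bulk sorted cells, fewer cells of a type and less RNA per cell cannot be told apart.

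Levels are given as log2 of the processed signal minus the 75th percentile of that array, so that 0 is the 75th percentile and a difference of 1 is a 2-fold change. The signal at the 75th percentile ran from 98.9 on IL10+ replicate 3 to 645 on IL10+ replicate 1, and 42.2% to 65.4% of probes were well above background. T cell receptor transcripts were measured in every group. The level of Cd3d, a chain of the T cell receptor complex, averaged 6.97 ± 0.33 (SD, n = 3) in IL10- tumour, 7.03 ± 0.53 in IL10+ tumour, 7.32 ± 0.28 in total tumour and 7.76 ± 0.18 in spleen. The Foxp3 probe went against the labels of the FoxP3-EGFP groups. Its level averaged 3.97 ± 0.91 in IL10- tumour and 3.65 ± 0.97 in IL10+ tumour but -6.46 ± 0.17 in total tumour and -6.11 ± 0.27 in spleen, although the latter groups were gated on the Foxp3 reporter. Its relation to the reporter allele was not tested, and no member's value rests on that probe. Spleen replicate 2 went against its label for other Treg transcripts. Its level was -3.95 for Il2ra, the CD25 chain, against 0.67 and 1.23 in spleen replicates 1 and 3, -1.28 against 3.07 and 3.23 for Ikzf2 and -0.94 against 3.06 and 3.25 for Ctla4. Without that array 25 members were higher and 1 lower in total tumour against spleen, with a median difference of 1.90. That fit called 5569 of 15561 features in either direction.

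The members moved together between arrays of 1 group. Total tumour replicate 2 was the highest of its 3 arrays for 34 of 36 members, whereas it was the highest for 30.9% of all features. Spleen replicate 3 was the lowest of its group for 30 of 36 members, against 36.7% of features, and spleen replicate 1 was the highest for 27. In the VERT-X groups, replicate 3 was the highest for 26 members in the IL10- fraction (24.7% of features) and for 27 in the IL10+ fraction (31.9%). Total tumour replicate 2 and spleen replicate 3 lie at the outer edges of their groups in the comparison of tumour with spleen, so counts are also given without both.

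**Figure D1:**
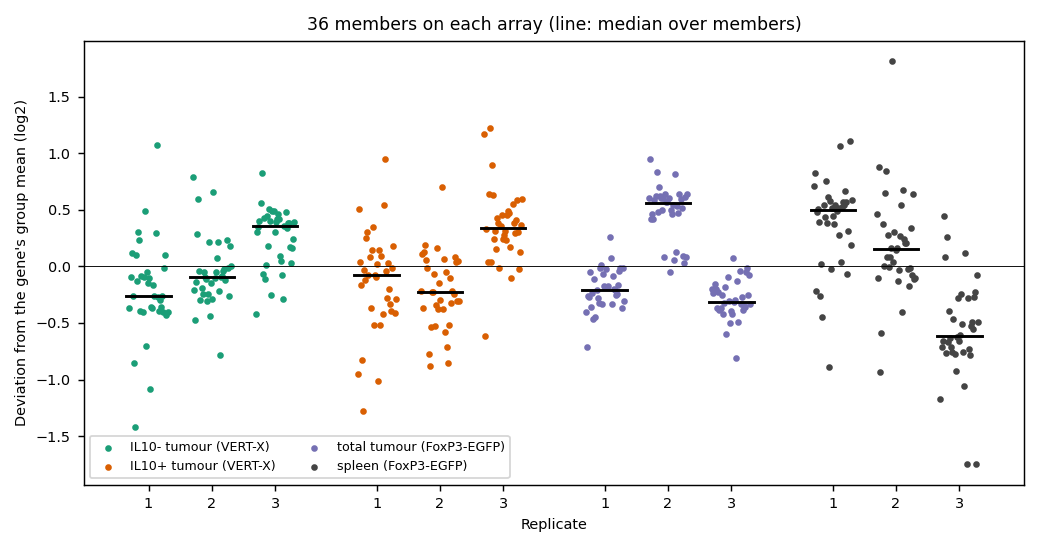
Deviation of each of the 36 members (points) from its own group mean, in log2 units, on each of the 12 arrays, with the replicate number of each group on the x axis and a line at the median over members. Total tumour replicate 2 sits above its group and spleen replicate 3 below its group for most members.

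Total tumour and spleen Treg were compared first because they share the FoxP3-EGFP strain, the gate and the scan day. Of the 36 members, 25 rose in tumour and 1, the scavenger receptor Marco, fell (limma, two-sided, Benjamini-Hochberg adjusted p under 0.05 over all 15561 features). Across all features 20.6% were called higher and 22.4% lower, 43.0% in either direction. At an unadjusted p under 0.05, 29 members passed, beside 51.0% of features. The median difference over the members was 1.99 on the log2 scale, from -2.77 for Marco to 9.21 for Trem2, whose spleen level is only a bound, beside a median of -0.07 over all features. For 28 members every total tumour array lay above every spleen array, as it did for 30.6% of features, and for Marco every tumour array lay below, as for 35.9% of features. The 10 members not called were Csf1r, Tyrobp, Ctsd, Ctss, Mrc1, Spi1, Cybb, Clec4n, Sirpa and Irf8. Without total tumour replicate 2 and spleen replicate 3, the count was 22 higher and 1 lower, beside 3981 of 15561 features called in either direction. Fcer1g (adjusted p = 0.0928), Adgre1 (adjusted p = 0.0946) and Mpeg1 (adjusted p = 0.288) were then no longer called. Within slide 2, the slide that held 1 total tumour array and all 3 spleen arrays, the median difference was 1.65 and 33 of 36 members were higher in tumour. With slide as a block in the fit, 17 members were called higher, and C1qc, Cd68, Fcgr3, Fcer1g, Adgre1, Aif1, Mpeg1 and Gpnmb were not. With normexp background correction 16 were called higher and 0 lower. It left uncalled C1qa (adjusted p = 0.0832), C1qc (0.0882), Cd68 (0.187), Fcgr3 (0.0715), Fcer1g (0.231), Ctsb (0.516), Adgre1 (0.236), Aif1 (0.118), Mpeg1 (0.345) and Marco (0.486).

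**Figure D2:**
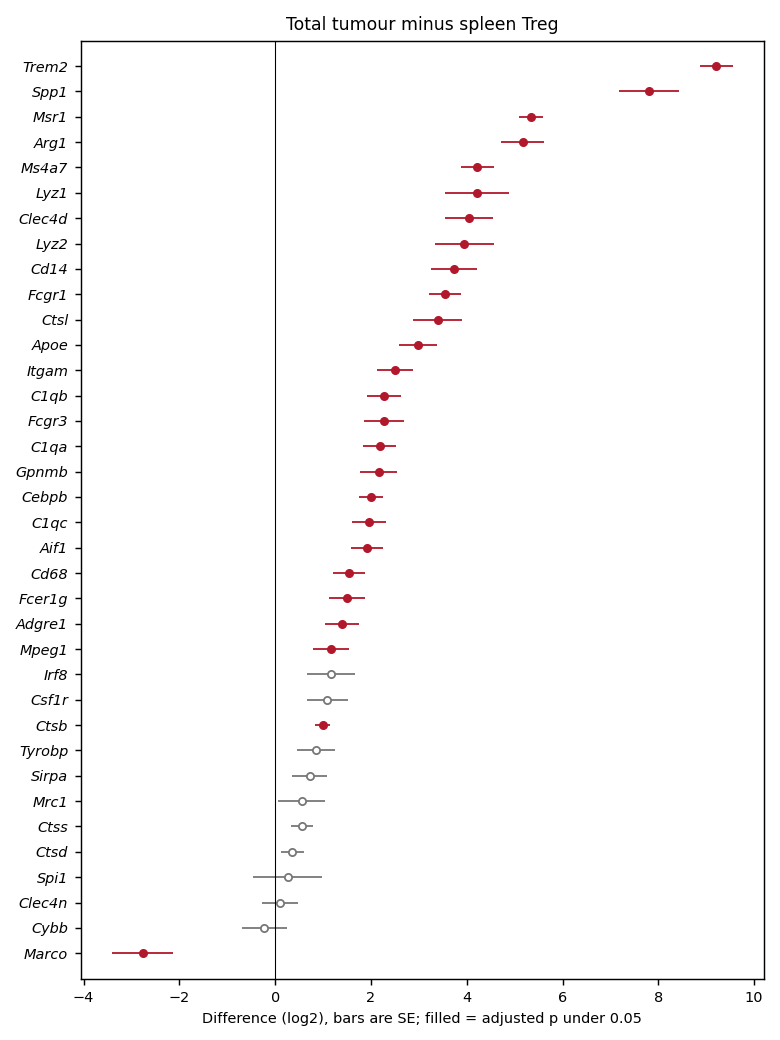
Difference in level of each of the 36 members, total tumour minus spleen, in log2 units (x axis), with bars for the standard error of the fit and filled points for members called at an adjusted p under 0.05. The fitted value of Trem2 is 9.21, although its spleen arrays, like those of Msr1, Arg1 and Clec4d, were below background, Marco is the member called lower at -2.77, and 10 members are unfilled.

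Markers of other cells also differed between tumour and spleen arrays. The summed signal of the 36 members, relative to the 75th percentile, ran from 749 to 1180 in total tumour and from 228 to 365 in spleen. The sum of the 13 T cell and Treg genes ran from 819 to 1140 in total tumour and from 616 to 755 in spleen. It is weighted towards the TNF receptor family members Tnfrsf18 (difference 1.79) and Tnfrsf4 (2.65), which have the brightest probes of that list. The median difference over the list was -0.14, and 6 of the 13 were above 0. Cd3d (-0.43), Cd3g (-0.14), Cd3e (-0.37), Cd247 (-0.91) and Lck (-0.47) were below 0 without passing. Of 10 fibroblast genes 9 rose in tumour, and their sum ran from 103 to 141 in total tumour and from 0.501 to 4.74 in spleen. Among them were Sparc (difference 5.39, adjusted p = 0.000649) and Dcn (9.43, adjusted p = 6.32e-06). All 8 B cell genes, among them Cd79b (difference -3.80, adjusted p = 1.79e-05), fell, with sums of 2.48 to 3.29 in total tumour and 46.0 to 86.8 in spleen. With normexp 5 of the 8 B cell genes were called lower, without Blk, Cr2 and Pax5, and 8 of the 10 fibroblast genes higher. The call of the fibroblast gene Lum was also lost without any 1 total tumour or spleen array (adjusted p from 0.0559 to 0.117). The part of such cells in the members' differences was not tested.

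Levels on all 12 arrays are given below in the order of replicates 1, 2 and 3 within each group. Among the lipid and complement members, Apoe, Trem2 and all 3 C1q chains rose in total tumour. Trem2 is a surface receptor for lipids and lipoproteins on macrophages and microglia. Its levels read 2.89, 2.5 and 3.43 in IL10- tumour, 3.33, 3.03 and 3.86 in IL10+ tumour, 2.88, 3.52 and 2.45 in total tumour and -6.29, -5.96 and -6.54 in spleen. The groups stood far apart: the 9 tumour arrays were well above background and none of the 3 spleen arrays was. The difference between total tumour and spleen was 9.21 ± 0.34 (SE), with an adjusted p of 5.47e-07. Since the spleen arrays give only a bound, Trem2 was at least 132-fold higher in total tumour on the processed signal. For such a bound the dimmer arrays enter at the higher of the probe's own signal and that of the dimmest probe still well above background on the array, and the mean of the bright group is divided by theirs. With normexp the difference of Trem2 was 5.04 on the log2 scale, a smaller fold than that bound. The same held for Msr1, Arg1 and Clec4d, so the bounds apply to the processed signal only. Msr1, Arg1 and Clec4d had the same pattern of detection, so these 4 members passed the filter through their tumour arrays alone and had to differ. With only probes well above background on all 12 arrays, 28 members remained in the fit, 19 were called higher and the median was 1.52. Of the 10462 features in that fit, 4807 were called in either direction.

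Apoe, an apolipoprotein that carries cholesterol and is bound by Trem2, had levels of 7.2, 7.61 and 8.0 in IL10- tumour, 7.65, 7.63 and 8.54 in IL10+ tumour, 6.98, 7.93 and 6.96 in total tumour and 4.9, 4.21 and 3.82 in spleen. All 9 tumour arrays exceeded all 3 spleen arrays. The difference between total tumour and spleen was 2.98 ± 0.39, with an adjusted p of 0.000259. C1qa, C1qb and C1qc encode the chains of C1q, which starts the classical complement pathway and is made largely by macrophages. C1qa levels were 4.75, 5.0 and 5.38 in IL10- tumour, 5.52, 5.16 and 5.78 in IL10+ tumour, 5.03, 5.92 and 4.9 in total tumour and 3.64, 3.07 and 2.57 in spleen. C1qb levels were 5.3, 5.44 and 5.95 in IL10- tumour, 5.66, 5.75 and 6.58 in IL10+ tumour, 5.39, 6.07 and 5.19 in total tumour and 3.85, 3.26 and 2.72 in spleen. C1qc levels were 5.0, 5.33 and 5.74 in IL10- tumour, 5.52, 5.5 and 6.13 in IL10+ tumour, 5.2, 6.04 and 5.1 in total tumour and 4.15, 3.31 and 2.99 in spleen. In each of the 3 chains the spleen arrays were the lowest and did not overlap any tumour array, and total tumour replicate 2 and IL10+ replicate 3 were the highest of their groups. The differences between total tumour and spleen were 2.18 ± 0.34 for C1qa (adjusted p = 0.000757), 2.27 ± 0.36 for C1qb (adjusted p = 0.000851) and 1.96 ± 0.36 for C1qc (adjusted p = 0.00186).

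Promoters are shown for Trem2, for C1qb and C1qc, neighbouring genes that also rose, for Marco, the member that fell, and for Lyz2, a member that rose and whose window holds no match. The table used holds no window for C1qa. They are the 250 bases before the annotated start site from RefSeq on build GRCm38.p6, on the strand of the gene: chr17:48346151-48346400 on the plus strand for Trem2, chr4:136886201-136886450 on the minus strand for C1qb, chr4:136892915-136893164 on the minus strand for C1qc, chr1:120505025-120505274 on the minus strand for Marco and chr10:117282273-117282522 on the minus strand for Lyz2. Capitals mark the core of the PU.1 motif, GAGGAA, which reads TTCCTC where it lies on the other strand.
Trem2: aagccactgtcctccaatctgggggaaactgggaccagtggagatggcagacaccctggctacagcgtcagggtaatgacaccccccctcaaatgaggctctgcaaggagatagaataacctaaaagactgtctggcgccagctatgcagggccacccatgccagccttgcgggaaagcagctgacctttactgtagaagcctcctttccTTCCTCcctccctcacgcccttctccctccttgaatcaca
C1qb: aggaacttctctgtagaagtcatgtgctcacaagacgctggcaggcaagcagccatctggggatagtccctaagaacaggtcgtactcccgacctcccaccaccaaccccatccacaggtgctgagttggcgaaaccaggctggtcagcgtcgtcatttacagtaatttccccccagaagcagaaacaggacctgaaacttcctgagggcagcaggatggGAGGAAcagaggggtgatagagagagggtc
C1qc: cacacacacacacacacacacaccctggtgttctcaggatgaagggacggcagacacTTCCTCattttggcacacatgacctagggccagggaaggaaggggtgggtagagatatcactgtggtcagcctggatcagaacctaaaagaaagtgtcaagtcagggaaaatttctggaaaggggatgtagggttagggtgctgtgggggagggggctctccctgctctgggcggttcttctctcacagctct
Marco: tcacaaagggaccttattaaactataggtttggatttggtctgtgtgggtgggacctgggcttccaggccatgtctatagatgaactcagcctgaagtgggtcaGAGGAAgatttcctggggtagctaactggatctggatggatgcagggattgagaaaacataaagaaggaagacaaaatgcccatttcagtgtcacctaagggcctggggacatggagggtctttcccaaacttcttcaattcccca
Lyz2: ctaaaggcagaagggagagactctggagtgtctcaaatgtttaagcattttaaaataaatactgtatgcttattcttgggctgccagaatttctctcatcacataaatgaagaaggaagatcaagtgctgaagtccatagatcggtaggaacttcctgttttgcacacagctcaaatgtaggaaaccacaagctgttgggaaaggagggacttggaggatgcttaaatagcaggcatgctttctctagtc
The match begins 40 bases before the start site in Trem2, 30 in C1qb, 193 in C1qc and 146 in Marco. These 4 are among the 14 members with a match, and Lyz2 is among those without. Searched on both strands, GAGGAA was found in 16 of 32 promoter windows (50%), from 14 of the 26 members that had one, whereas 23.3% of all 32851 windows of the same length held it. The E-box CACGTG, known from lysosomal genes and the same on both strands, was in 2 member windows (6.25%), those of Ctsd and Ctsl, against 6.02% of all windows. A match of letters is a description and does not show binding. The other 12 members had no window in the table used. The remaining values return to the array probes, whose coordinates in the files are on mm8 and are not compared with these windows. The probe for Trem2 lies at chr17:47817764-47817823, that for Apoe at chr7:18854905-18854964 and that for C1qb at chr4:136152739-136152798 (mm8).

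Among surface receptors that define macrophages, Cd14, Adgre1 and Itgam rose in total tumour and Csf1r did not pass the test. Csf1r is the receptor for CSF1 and IL-34 on which macrophages depend. Its levels were 2.54, 3.46 and 3.73 in IL10- tumour, 3.08, 3.76 and 3.95 in IL10+ tumour, 2.45, 3.42 and 2.47 in total tumour and 2.27, 1.73 and 1.07 in spleen. Each of the 9 tumour arrays was above each spleen array, but total tumour replicates 1 and 3 came close to spleen replicate 1. The difference between total tumour and spleen was 1.09 ± 0.42 (adjusted p = 0.061), and it passed without spleen replicate 1 (1.38, adjusted p = 0.04), without IL10- replicate 1 (adjusted p = 0.0419) or with detection on all 12 arrays (adjusted p = 0.0468). Cd14, a co-receptor for lipopolysaccharide on monocytes and macrophages, had levels of 4.56, 4.8 and 4.82 in IL10- tumour, 5.0, 4.33 and 5.4 in IL10+ tumour, 3.89, 4.17 and 2.82 in total tumour and 0.41, 0.43 and -1.17 in spleen. Tumour and spleen arrays did not overlap, and the VERT-X arrays all lay above the FoxP3-EGFP tumour arrays. Cd14 differed by 3.74 ± 0.48 between total tumour and spleen (adjusted p = 0.000246).

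Adgre1 encodes an adhesion receptor that is the classical surface marker of mouse macrophages. Its levels were 1.67, 1.66 and 1.94 in IL10- tumour, 2.25, 1.94 and 2.32 in IL10+ tumour, 1.57, 2.45 and 1.52 in total tumour and 1.21, 0.45 and -0.30 in spleen. Spleen replicate 1 was nearest to the tumour arrays and still below all of them. Adgre1 differed by 1.40 ± 0.36 (adjusted p = 0.0118). Itgam, the CD11b chain used in the sort gate, had levels of -1.64, -1.52 and -0.98 in IL10- tumour, -1.12, -0.83 and -0.92 in IL10+ tumour, -1.74, -1.01 and -1.67 in total tumour and -3.5, -4.91 and -3.53 in spleen. It was well above background on all 9 tumour arrays and on 2 of the 3 spleen arrays, and the groups did not overlap. The difference was 2.50 ± 0.37 (adjusted p = 0.000583), and 1.21 with normexp. Ms4a7, a tetraspan membrane protein found on macrophages, rose by 4.22 ± 0.34 (adjusted p = 1.63e-05), from -1.13 ± 0.54 in spleen to 3.09 ± 0.54 in total tumour.

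Of the Fc receptors and their signalling adaptors, Fcgr1, Fcgr3 and Fcer1g rose and Tyrobp did not pass. Fcgr1 is the high-affinity receptor for IgG, and it rose by 3.54 ± 0.33 (adjusted p = 3.99e-05) from -1.23 ± 0.43 in spleen to 2.30 ± 0.44 in total tumour. Fcgr3, a low-affinity IgG receptor, had levels of 2.47, 2.25 and 2.96 in IL10- tumour, 3.11, 2.44 and 3.35 in IL10+ tumour, 2.62, 3.24 and 2.04 in total tumour and 0.97, 0.52 and -0.41 in spleen. No spleen array reached the tumour arrays. Fcgr3 differed by 2.27 ± 0.42 (adjusted p = 0.00184). Fcer1g is the common gamma chain through which Fc receptors signal. Its levels were 4.71, 5.02 and 5.59 in IL10- tumour, 5.12, 5.3 and 5.79 in IL10+ tumour, 4.73, 5.41 and 4.67 in total tumour and 4.0, 3.64 and 2.65 in spleen. Spleen replicate 3 lay below the other spleen arrays, and no spleen array reached a tumour array. The difference was 1.5 ± 0.38 (adjusted p = 0.00961). Tyrobp (DAP12) is the adaptor of Trem2 and of receptors on NK cells. Its levels were 4.28, 4.46 and 4.91 in IL10- tumour, 5.06, 4.58 and 5.65 in IL10+ tumour, 4.66, 5.4 and 4.53 in total tumour and 4.54, 4.22 and 3.28 in spleen. Spleen replicates 1 and 2 lay within or next to the range of the tumour arrays, and the difference of 0.85 ± 0.39 did not pass (adjusted p = 0.105).

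**Figure D3:**
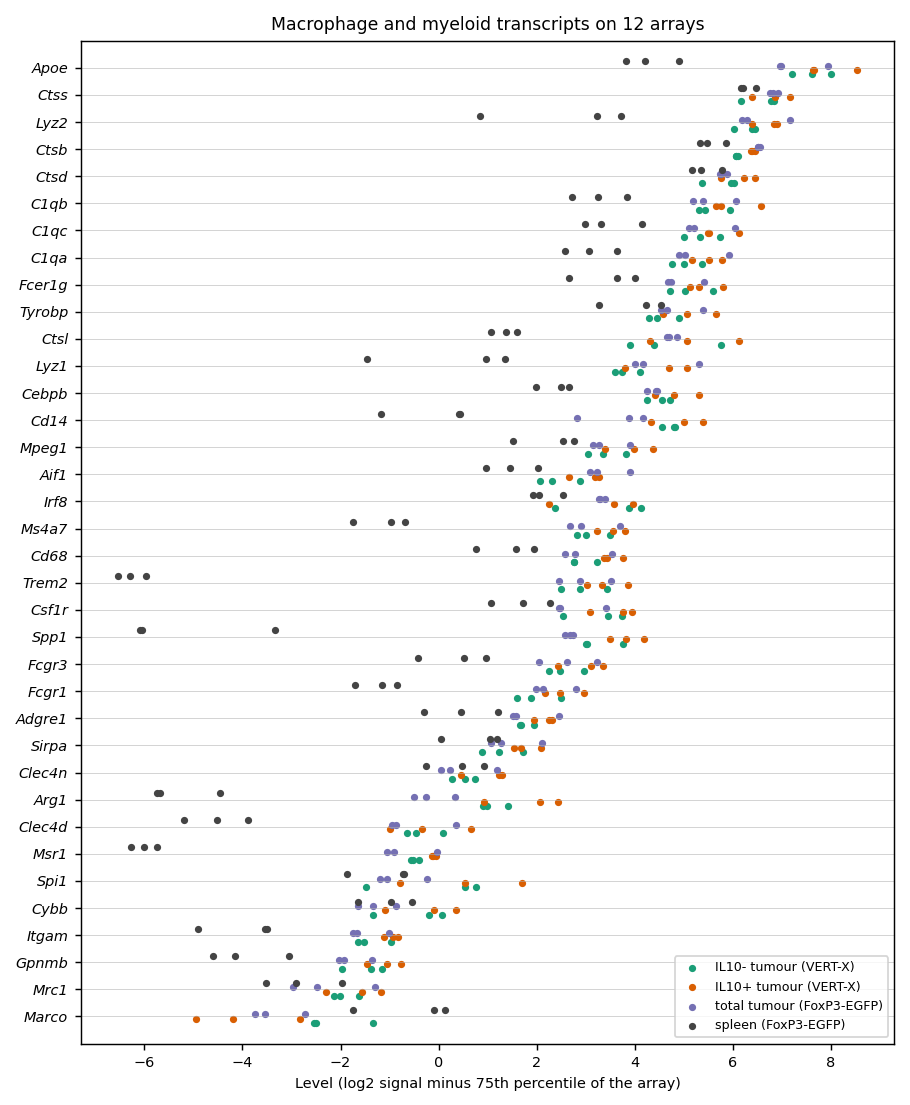
Level of each of the 36 members (1 line of points per gene) on the 12 arrays, as log2 signal minus the 75th percentile of the array, coloured by group; levels of different genes come from different probes and are not comparable. Spleen points lie left of all tumour points for Trem2, Spp1, Msr1 and Arg1, overlap them for Ctsd, Cybb and Clec4n, and lie right of the total tumour points for Marco.

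Scavenger and lectin receptors went in both directions. Msr1, a receptor for modified lipoproteins, rose by 5.35 ± 0.25 (adjusted p = 9.79e-07). On the processed signal this was at least 10.8-fold, since no spleen array was well above background. With normexp the difference was 2.17. Msr1 had 3 probes, whose differences ranged over 2.48 with 1 sign. Clec4d, a lectin that binds fungal and mycobacterial glycolipids, rose by 4.04 ± 0.50 (adjusted p = 0.000201), at least 12.2-fold on the processed signal, and by 1.92 with normexp. Marco, a scavenger receptor for bacteria and particles that is known from macrophages of the splenic marginal zone and the lung, had levels of -2.49, -1.33 and -2.54 in IL10- tumour, -4.94, -4.2 and -2.82 in IL10+ tumour, -3.74, -2.73 and -3.54 in total tumour and 0.14, -0.10 and -1.74 in spleen. The spleen arrays were above the total tumour and IL10+ arrays, and spleen replicate 3 was below IL10- replicate 2. The difference between total tumour and spleen was -2.77 ± 0.64 (adjusted p = 0.0062). With normexp it was -1.01 and did not pass (adjusted p = 0.486). The Marco probe lies at chr1:122302084-122302103 (mm8).

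Mrc1 (the mannose receptor CD206), Clec4n (Dectin-2) and Sirpa (the inhibitory receptor for CD47) did not pass. Their differences were 0.55 ± 0.49 for Mrc1 (adjusted p = 0.406), 0.10 ± 0.38 for Clec4n (adjusted p = 0.856) and 0.72 ± 0.37 for Sirpa (adjusted p = 0.143). Without total tumour replicate 2 and spleen replicate 3, Mrc1 (-0.29) and Clec4n (-0.57) changed sign. The total tumour arrays overlapped the spleen arrays for all 3 receptors.

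The lysosomal members divided by gene. Cd68, a lysosomal glycoprotein of macrophages, had levels of 2.77, 2.77 and 3.22 in IL10- tumour, 3.43, 3.37 and 3.76 in IL10+ tumour, 2.79, 3.54 and 2.57 in total tumour and 1.94, 1.57 and 0.77 in spleen. The spleen arrays were all lower than the tumour arrays, by 1.54 ± 0.33 against total tumour (adjusted p = 0.00417). Lyz2 and Lyz1 encode lysozymes that cut bacterial cell walls. They are near-identical copies, so which of them each probe measured is uncertain. Lyz2 levels were 6.39, 6.03 and 6.45 in IL10- tumour, 6.89, 6.4 and 6.83 in IL10+ tumour, 6.18, 7.16 and 6.29 in total tumour and 3.71, 3.24 and 0.85 in spleen. Lyz1 levels were 4.11, 3.6 and 3.74 in IL10- tumour, 5.06, 3.81 and 4.69 in IL10+ tumour, 4.16, 5.31 and 4.0 in total tumour and 1.35, 0.96 and -1.46 in spleen. In both, spleen replicate 3 lay far below the other spleen arrays, and all spleen arrays lay below all tumour arrays. The differences were 3.95 ± 0.62 for Lyz2 (adjusted p = 0.000764) and 4.21 ± 0.67 for Lyz1 (adjusted p = 0.000859).

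Cathepsins are lysosomal proteases, and Ctsb and Ctsl rose whereas Ctsd and Ctss did not pass. Ctsl levels were 5.76, 3.9 and 4.4 in IL10- tumour, 6.12, 4.32 and 5.07 in IL10+ tumour, 4.65, 4.86 and 4.7 in total tumour and 1.38, 1.59 and 1.06 in spleen. The VERT-X arrays of replicate 1 were the highest, and spleen was far below every tumour array. Ctsl differed by 3.39 ± 0.51 between total tumour and spleen (adjusted p = 0.000583). Ctsb levels were 6.07, 6.07 and 6.11 in IL10- tumour, 6.39, 6.45 and 6.38 in IL10+ tumour, 6.52, 6.56 and 6.52 in total tumour and 5.86, 5.47 and 5.32 in spleen. Its tumour groups were tight and the groups did not overlap, with a difference of 0.99 ± 0.15 (adjusted p = 0.000545). The other Ctsb probe gave 0.52 and did not pass in a fit of all probes (adjusted p = 0.0769). With arrays scaled to their median the Ctsb call was lost (adjusted p = 0.0611). Ctsd levels were 5.38, 6.02 and 5.96 in IL10- tumour, 5.75, 6.23 and 6.45 in IL10+ tumour, 5.75, 5.88 and 5.74 in total tumour and 5.36, 5.77 and 5.16 in spleen. Spleen replicate 2 lay among the total tumour arrays, and the difference of 0.36 ± 0.24 did not pass (adjusted p = 0.253). Ctss, which trims the invariant chain of MHC class II, had levels of 6.17, 6.78 and 6.84 in IL10- tumour, 6.39, 6.85 and 7.17 in IL10+ tumour, 6.82, 6.92 and 6.76 in total tumour and 6.47, 6.17 and 6.21 in spleen. The total tumour arrays lay above the spleen arrays, but IL10- replicate 1 and IL10+ replicate 1 lay within the spleen range. The difference for Ctss was 0.55 ± 0.23 (adjusted p = 0.08). It passed without IL10- replicate 1 (adjusted p = 0.0462), without IL10+ replicate 1 (adjusted p = 0.0456) or with only the arrays compared in the fit (adjusted p = 0.0137). Under every other alternative it did not pass, with an adjusted p of up to 0.802 and a difference down to 0.29.

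Secreted products and effector enzymes included Spp1 and Arg1, which rose. Spp1 encodes osteopontin, a secreted matrix protein of tumour macrophages and other cells. Its levels were 3.75, 3.02 and 3.01 in IL10- tumour, 4.19, 3.5 and 3.83 in IL10+ tumour, 2.67, 2.74 and 2.57 in total tumour and -6.05, -3.34 and -6.08 in spleen. Spleen replicate 2, the 1 spleen array on which the probe was well above background, lay above the other spleen arrays and below every tumour array. Spp1 differed by 7.81 ± 0.62 (adjusted p = 1.45e-05), and by 4.55 with normexp, with 2 of the 3 spleen arrays not well above background. Arg1, arginase 1, which depletes arginine in myeloid cells, had levels of 1.41, 0.91 and 0.99 in IL10- tumour, 2.06, 0.93 and 2.44 in IL10+ tumour, -0.25, 0.34 and -0.50 in total tumour and -5.75, -4.46 and -5.69 in spleen. The order was spleen, then total tumour, then the VERT-X groups, with no overlap between these 3 sets. Arg1 differed by 5.17 ± 0.45 between total tumour and spleen (adjusted p = 2.36e-05), at least 15.6-fold on the processed signal, and by 2.29 with normexp.

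Gpnmb, a glycoprotein of lipid-laden macrophages, had levels of -1.38, -1.97 and -1.15 in IL10- tumour, -1.05, -1.45 and -0.76 in IL10+ tumour, -2.04, -1.36 and -1.93 in total tumour and -4.15, -3.06 and -4.6 in spleen. Only 1 spleen array was well above background for it, and the groups did not overlap. Gpnmb differed by 2.16 ± 0.39 (adjusted p = 0.00174), and by 1.21 with normexp. Mpeg1 (perforin-2, a pore-forming protein of phagocytes) differed by 1.17 ± 0.38 (adjusted p = 0.0312). That call was lost without total tumour replicate 1 (adjusted p = 0.0572), total tumour replicate 2 (0.94, adjusted p = 0.114) or spleen replicate 3 (0.79, adjusted p = 0.109). Aif1 (Iba1, an actin-binding protein of macrophages and microglia) rose by 1.92 ± 0.33 (adjusted p = 0.00133). Cybb, the catalytic subunit of the phagocyte NADPH oxidase, differed by -0.23 ± 0.47 (adjusted p = 0.724), with total tumour at -1.29 ± 0.39 and spleen at -1.05 ± 0.55.

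Of the transcription factors, Cebpb rose and Spi1 and Irf8 did not pass. Spi1 encodes PU.1. Its levels were -1.49, 0.53 and 0.76 in IL10- tumour, -0.79, 0.54 and 1.71 in IL10+ tumour, -1.19, -0.24 and -1.06 in total tumour and -0.70, -0.72 and -1.86 in spleen. The total tumour and spleen arrays overlapped, and replicate 1 of both VERT-X groups was far below replicates 2 and 3. The difference between total tumour and spleen was 0.26 ± 0.72 (adjusted p = 0.805), and its sign turned without total tumour replicate 2 (-0.04) or spleen replicate 3 (-0.13). Irf8, a factor for monocytes, dendritic cells and B cells, had levels of 2.38, 4.12 and 3.88 in IL10- tumour, 2.25, 3.97 and 3.58 in IL10+ tumour, 3.3, 3.28 and 3.4 in total tumour and 2.54, 2.04 and 1.92 in spleen. Total tumour was above spleen on every array, yet replicate 1 of both VERT-X groups lay within the spleen range. Irf8 differed by 1.16 ± 0.50 (adjusted p = 0.0897). It passed without IL10- replicate 1 (adjusted p = 0.0374), without IL10+ replicate 1 (adjusted p = 0.0422) or with only the arrays compared in the fit (adjusted p = 0.00392). Under every other alternative it did not pass, with an adjusted p of up to 0.299 and a difference down to 0.89. The other Irf8 probe gave 1.18 and passed in a fit of all probes (adjusted p = 0.0441). Cebpb, a factor of myeloid differentiation and inflammation, had levels of 4.24, 4.72 and 4.55 in IL10- tumour, 4.42, 4.79 and 5.31 in IL10+ tumour, 4.46, 4.44 and 4.25 in total tumour and 2.66, 1.98 and 2.5 in spleen. The spleen arrays lay below all tumour arrays, by 2.01 ± 0.25 against total tumour (adjusted p = 0.000218).

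Related gene lists, chosen for the same cells, were counted in the same fit, where 20.6% of all features were called higher and 22.4% lower. Of 27 further macrophage receptors 18 rose in total tumour and 2 fell, with a median difference of 1.55. Among the 18, Clec4e, Folr2, C3ar1, C5ar1, Siglec1 and Mgl2 had spleen levels that averaged from -6.42 to -5.99. The size of those rises rests on dim spleen signals, and how far the filter on dim probes fixed these calls was not tested. The receptors that fell were Tlr7, a sensor of single-stranded RNA (difference -2.09, adjusted p = 0.00887), and Ms4a4c (-1.08, adjusted p = 0.0251). The pair with the brightest probes was Ms4a6c (difference 0.76, adjusted p = 0.0526) and Fcgr2b, the inhibitory IgG receptor (1.71, adjusted p = 0.00865). Of 18 lysosomal genes 9 rose and 0 fell, with a median of 0.80. The brightest were the cathepsin Ctsz (1.76, adjusted p = 3.3e-05) and the cholesterol transporter Npc2 (0.28, adjusted p = 0.34). None of the 5 partners of Cybb in the NADPH oxidase passed, among them Rac2 (-0.42, adjusted p = 0.394) and Cyba (0.19, adjusted p = 0.274). Lipid handling genes divided into 4 of 10 higher, among them Plin2 (2.30, adjusted p = 1.47e-05) and Apoc2 (4.31, adjusted p = 4.97e-05), and 4 lower, the cholesterol exporters Abca1 and Abcg1, their regulator Nr1h3 and Apoc1. With arrays left out one at a time, the call of Ms4a4c was lost without total tumour replicate 1 or 3 or any spleen array (adjusted p from 0.0528 to 0.0827). Abca1 did not pass when total tumour replicate 1 (adjusted p = 0.0591) or 3 (0.0582) was left out. Ms4a6c passed without total tumour replicate 3 (adjusted p = 0.0392) or IL10- replicate 3 (0.0377), and Npc2 passed without spleen replicate 2 (0.56, adjusted p = 0.0187). With normexp 10 of the 27 receptors, 3 of the 18 lysosomal and 2 of the 10 lipid handling genes were called higher. Of the genes named here, Tlr7, Ms4a4c, Fcgr2b, Ctsz, Plin2, Abca1, Nr1h3 and Apoc1 were then not called.

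Markers of particular phagocytes differed by list. Of 7 monocyte genes 6 rose in total tumour, with a median of 3.45. The brightest of them were Plac8 (1.20, adjusted p = 0.0165) and Chil3 (2.92, adjusted p = 0.0147). Without spleen replicate 3 Chil3 was at 1.78 and Plac8 did not pass (adjusted p = 0.0609), nor did Plac8 without total tumour replicate 2 (adjusted p = 0.0572). The largest differences of the monocyte list were those of Fn1 (5.43), Thbs1 (5.22) and Vcan (3.59). Their spleen levels averaged -4.69, -6.33 and -5.9, so the size of these rises rests on dim spleen signals. With normexp 5 of the 7 were called higher, Plac8 not among them, and the median was 1.80. Whether monocytes were the source of these transcripts was not tested. Of 6 genes of splenic red pulp macrophages 4 fell, namely Spic (-4.98, adjusted p = 0.000232), Slc40a1 (-5.21, adjusted p = 4.81e-06), Cd5l (-6.11, adjusted p = 0.000406) and Treml4 (-2.50, adjusted p = 0.000638). Their levels in total tumour averaged -3.95, -4.72, -4.85 and -1.59 in that order, so the size of the falls rests on dim tumour signals. With normexp the differences were -2.62, -2.41, -2.99 and -1.73, and Slc40a1 was not called (adjusted p = 0.0506). The brightest of that list, Hmox1 (0.27, adjusted p = 0.712) and Vcam1 (-0.22, adjusted p = 0.733), did not pass. Whether the fall of Marco and that of these 4 genes share a source was not tested.

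**Figure D4:**
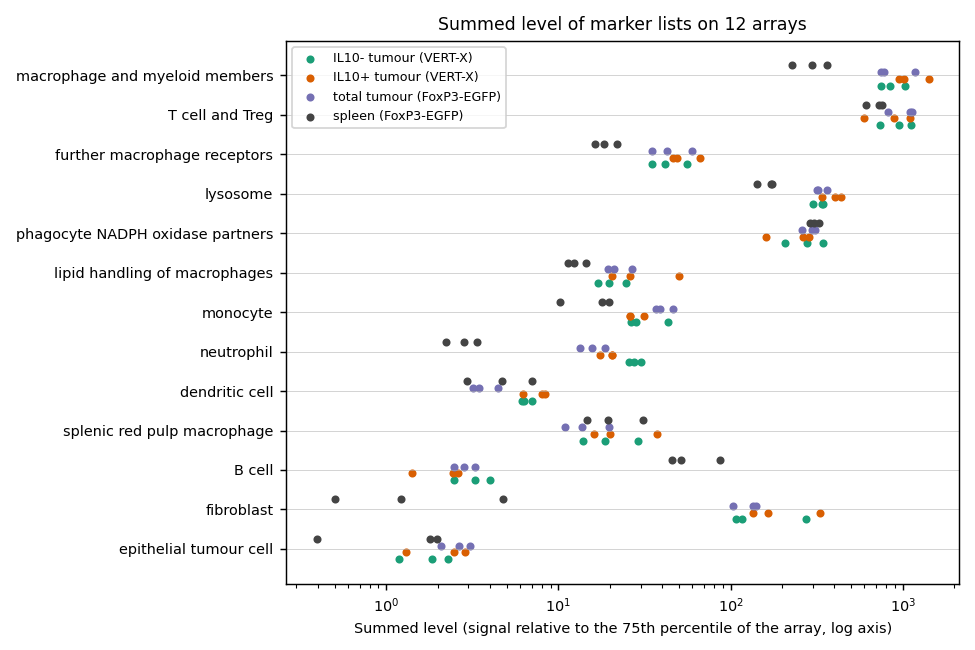
Summed signal of each gene list on the 12 arrays, in multiples of the array's 75th percentile, on a log axis and coloured by group. The 36 members sum to 749 to 1180 in total tumour and 228 to 365 in spleen, the fibroblast list is lowest in spleen and the B cell list is highest there.

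IL10+ and IL10- tumour Treg came from the same strain and gate and were split by the Il10 reporter. None of the 36 members passed the test in either direction (limma, adjusted p under 0.05). Of all features 0.00643% were called higher and 0.0450% lower, 0.0514% in either direction. At an unadjusted p under 0.05, 1 member passed, Marco, beside 4.67% of features. The point estimates were small and mostly above 0: 34 of 36 members were higher in the IL10+ fraction, with a median of 0.41 (range -1.86 to 0.70), beside -0.04 over all features. That median changed sign, to -0.68, when the background was corrected by normexp. Within slide 3, which held 1 IL10+ array and all 3 IL10- arrays, the median was 0.19 and 28 members were above 0.

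Marco differed by -1.86 ± 0.64 between the IL10+ and IL10- fractions (limma, adjusted p = 0.901). The IL10+ arrays lay below the IL10- arrays, and 1 of the 3 IL10+ arrays was well above background. The other members named by size were Lyz1 (0.70 ± 0.67, adjusted p = 1), Arg1 (0.70 ± 0.45, adjusted p = 1), Aif1 (0.61 ± 0.33, adjusted p = 1) and Cd68 (0.60 ± 0.33, adjusted p = 1). Apoe differed by 0.34 ± 0.39, Itgam by 0.42 ± 0.37, Lyz2 by 0.41 ± 0.62, C1qa by 0.44 ± 0.34 and Irf8 by -0.20 ± 0.50, each with an adjusted p of 1. For 4 members, named here after their values were seen, all IL10+ arrays lay above all IL10- arrays: Adgre1, Cd68, Ctsb and Msr1. The share of features with that order was 1.86%, and with the opposite order, which Marco had, 5.74%. No gene of any other list passed in this comparison. The summed signal of the members ran from 750 to 1030 in IL10- and from 956 to 1420 in IL10+ arrays, and that of the T cell and Treg genes from 735 to 1120 and from 598 to 1110.

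**Figure D5:**
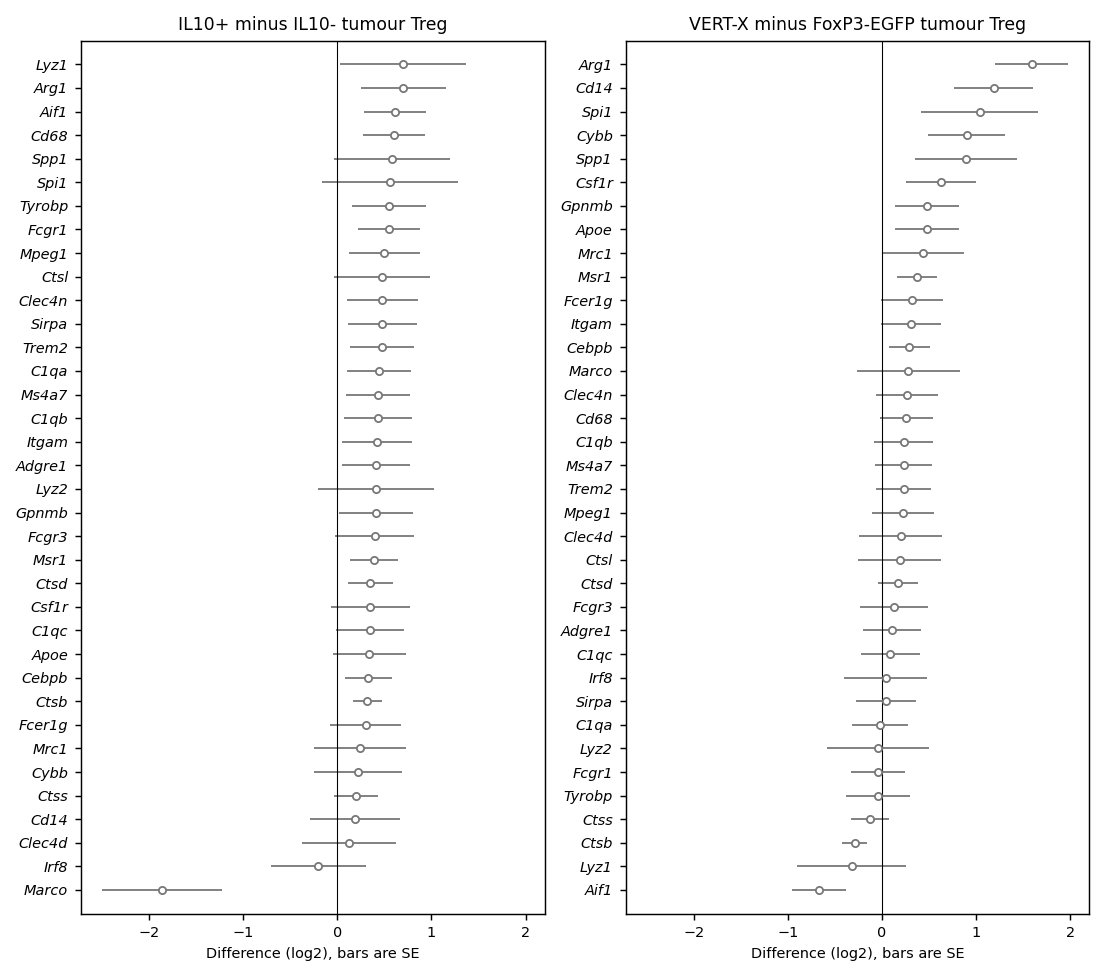
Differences in level of the 36 members in log2 units, with bars for the standard error: IL10+ minus IL10- tumour Treg on the left and VERT-X minus FoxP3-EGFP tumour Treg on the right. No member passed in either comparison; Marco lies lowest on the left at -1.86 and Arg1 highest on the right at 1.59.

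Replicate 1 of the VERT-X groups was set beside replicates 2 and 3. It was the lowest array in both fractions for 12 of 36 members, C1qb, Csf1r, Fcgr1, Fcer1g, Ctsd, Ctss, Itgam, Spi1, Cybb, Mpeg1, Cebpb and Irf8, as it was for 29.6% of features. It was the highest in both for 4 members, Lyz1, Ctsl, Spp1 and Clec4n, whereas it was for 30.4% of features. The first share is near that of all features and the second below it, so neither is read as a result about the members. Replicate 1 minus the mean of replicates 2 and 3 was -2.13 in IL10- and -1.92 in IL10+ for Spi1, and -1.62 and -1.53 for Irf8. For Ctsl it was 1.61 and 1.43. Beside it, the fibroblast sum was highest on replicate 1 in both fractions, at 274 in IL10- and 333 in IL10+. The part of such cells in these values was not tested.

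The VERT-X groups, taken as the mean of both IL10 fractions, were compared with the total tumour group of FoxP3-EGFP mice, where reporter strain and second gate differ together and cannot be told apart. Scan day and slide nearly followed this division too: the 3 total tumour arrays were scanned on day 1 and 5 of the 6 VERT-X arrays on day 2 and on other slides. The comparison uses the total tumour arrays that also entered the comparison with spleen, and the IL10 fractions of the previous comparison. No member passed in either direction (limma, adjusted p under 0.05), while 0.263% of features were called higher and 0.617% lower, 0.880% in either direction. At an unadjusted p under 0.05, 4 members passed (Aif1, Arg1, Cd14 and Ctsb, named after their values were seen), beside 19.7% of features. The median over members was 0.23 (range -0.67 to 1.59), beside 0.00 over all features, and 28 of 36 were above 0. It was -0.17 with arrays scaled to their median, which moved the median of all features to -0.41, and -0.22 with normexp.

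Arg1 had the largest difference, 1.59 ± 0.39 (adjusted p = 0.0755), and all 6 VERT-X arrays lay above the total tumour arrays. Cd14 differed by 1.19 ± 0.42 (adjusted p = 0.166), Spi1 by 1.04 ± 0.62 (adjusted p = 0.388), Cybb by 0.90 ± 0.41 (adjusted p = 0.258) and Spp1 by 0.89 ± 0.54 (adjusted p = 0.389). The other Cybb probe gave -0.52, so its direction turned with the probe. Apoe differed by 0.48 ± 0.34 (adjusted p = 0.46), Itgam by 0.31 ± 0.32 (adjusted p = 0.634) and Irf8 by 0.04 ± 0.44 (adjusted p = 0.973). C1qa differed by -0.02 ± 0.30 (adjusted p = 0.983) and Lyz2 by -0.04 ± 0.54 (adjusted p = 0.974). The groups did not overlap for Arg1, Cd14 and Spp1, higher in VERT-X (4.71% of features), and for Ctsb, lower in VERT-X (8.23% of features). On slide 1, which held IL10+ replicate 1 and total tumour replicates 1 and 2, the median was 0.09, 21 of 36 members were above 0 and Arg1 differed by 2.01. Outside the members, Foxp3 was higher in VERT-X by 10.27 (adjusted p = 4.41e-06), Fscn1 of the dendritic cell list was higher by 1.49 (adjusted p = 0.035) and the cholesterol exporter Abcg1 was lower by 0.90 on the log2 scale (adjusted p = 0.0355).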

How the data were processed

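RNA of 4 groups of sorted mouse Treg was measured on 12 single-channel Agilent arrays, 3 per group, grouped by the sample labels. The deposited spot intensity came from Agilent Feature Extraction 9.5.3.1, which subtracted the background within each array, per the file headers. The mean and local background intensity of each spot, also per the file headers, served in an alternative. The deposited value table is on a log10 scale, as its correlation with log10 of the processed intensity showed (r from 0.995 to 1.00 per array), with a median of 1.33 per array. How its values were normalized is not stated in these sources, and it was used in an alternative only. No between-array normalization is recorded in the headers. Per the labels the RNA was biotin-labelled, which the headers do not record.

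Control spots and spots marked as outliers were left out, and 43379 spots were averaged on the log2 scale into 41174 probes. Probes were named through the RefSeq table of GRCm38.p6 (23374 by accession, 6733 by symbol, 2919 by synonym), 839 kept the file's name and 7309 had none. A gene was represented by its brightest probe, kept if well above background on 3 or more, which gave 15561 features, 13334 with a gene name. No member's probe was saturated. Of the 36 members kept, 18 had several probes, which had 1 sign for every member between tumour and spleen and between the IL10 fractions but differed in sign for 9 members between VERT-X and FoxP3-EGFP (Itgam, Irf8, Ms4a7, Lyz2, Fcgr3, Cybb, Ctsd, Ctsb and Cebpb).

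From each array's log2 processed intensity its own 75th percentile was subtracted to give the level. All 12 arrays were fitted on group means with lmFit and eBayes of limma 3.58.1 (two-sided tests, R 4.3.3, version 1.17.8 of data.table), with Benjamini-Hochberg adjustment over all features and calls at an adjusted p under 0.05. The number of arrays limits the precision. The arrays lay on 4 slides and were scanned on 2 days. The fit was tested on simulated data. Python 3.11.15 with matplotlib 3.10.9 drew the figures.

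The members and lists were chosen with earlier results of these data known. All 36 members kept were named between tumour and spleen. In the other comparisons the rule named members called, the 5 with the largest absolute difference, and Apoe, Itgam, Lyz2, C1qa, Arg1 and Irf8. Of each other list, counts and the pair with the brightest probes are given, with further genes named after their values were seen. Of the genes this rule names, 1 is not reported here. Alternatives were normexp background correction with an offset of 50, quantile and median scaling, the authors' value table, no filter or detection on all 12 arrays, the mean of all probes, slide or replicate number as a block, only the arrays compared, and each array left out. Leaving out total tumour replicate 2 and spleen replicate 3 together was added after seeing the data.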

Additional observations from a re-analysis of the deposited data

How the results depend on the processing

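Between total tumour and spleen, 16 members were called higher and 0 lower with normexp, which called 1865 features against 6690. With detection on all 12 arrays 0 were lower, because the Marco probe was not in that fit. Slide as a block called 3474 features and median scaling 3877, with 17 and 23 members higher. The other alternatives gave 19 to 27 higher. Among them, detection on all 12 arrays tested 28 members and called 4807 of 10462 features. No filter tested 38 members and called 4905 of 27754 features, and only the arrays compared called 8384 of 15561. Leaving out each array gave 24 to 28 higher, 1 to 1 lower and medians of 1.77 to 2.17, with 5104 to 7325 features called. Apoe, Trem2, C1qb, Cd14, Lyz1, Lyz2, Fcgr1, Ctsl, Msr1, Itgam, Ms4a7, Arg1, Spp1, Clec4d and Cebpb were called in every alternative that tested them. For Trem2, Msr1, Arg1 and Clec4d, which passed the filter through their tumour arrays alone, this adds no support. These members, Itgam and Spp1 were not in the fit with detection on all 12 arrays. Clec4n turned to -0.15 with the slide block and to -0.57 without total tumour replicate 2 and spleen replicate 3, which also turned Mrc1 to -0.29 and Spi1 to -0.42. Leaving out each array moved Spi1 between -0.13 and 0.46, Cybb between -0.53 and 0.02 and Clec4n between -0.25 and 0.37.

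Between the IL10 fractions the median turned to -0.68 with normexp, as did Apoe (-0.88), C1qa (-0.75), Cd68 (-0.66), Lyz1 (-0.51), Lyz2 (-0.82), Aif1 (-0.48), Arg1 (-0.14) and Marco (0.26). The slide block turned Lyz1 (-0.00), Arg1 (-0.18) and Irf8 (0.51). Leaving out each array gave 0 to 0 calls and medians of 0.27 to 0.54, and moved Irf8 between -0.73 and 0.31. Between VERT-X and FoxP3-EGFP the median turned to -0.22 with normexp and -0.17 with median scaling, and lay between 0.07 and 0.50, with 0 to 0 calls, when each array was left out. Irf8 turned with normexp (-0.37), median scaling (-0.36), the mean of probes (-0.10) and the slide block (-1.30). Itgam turned with median scaling (-0.09), the mean of probes (-0.04) and the slide block (-0.02). Lyz2 turned with quantile scaling (0.01), the authors' table (0.04), the mean of probes (0.17), the slide block (0.17) and without both arrays (0.26). C1qa turned with quantile scaling (0.04), the authors' table (0.05) and without both arrays (0.30). Spi1 (-0.38) and Cybb (-0.20) turned with the slide block. Leaving out each array moved C1qa between -0.21 and 0.30, Lyz2 between -0.23 and 0.26, and Irf8 between -0.14 and 0.31. None of these members was called, and the cause of the changes was not tested.

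With replicate number as a block, 25 members were called higher and 1 lower between tumour and spleen (median 1.99), and the medians of the other comparisons stayed at 0.41 and 0.23 with 0 calls. Same-numbered arrays deviated together in the IL10 fractions for replicates 1 and 2 (r across features 0.41 and 0.43) but not 3 (-0.24), and hardly in total tumour and spleen (-0.02, 0.08 and 0.00), so the numbers were not taken to pair the samples.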

Other observations

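Some lists of other cells were not described above. Of 13 T cell and Treg genes 3 rose in total tumour against spleen and 0 fell (limma, adjusted p under 0.05, median -0.14): the TNF receptor family members Tnfrsf18 (difference 1.79, adjusted p = 0.0154) and Tnfrsf4 (2.65, adjusted p = 0.0338), which have the brightest probes of the list, and the inhibitory receptor Ctla4 (3.77, adjusted p = 0.00714). Spleen replicate 2 was far below the other spleen arrays for all 3, and without it the differences were 1.10, 1.30 and 2.40 (adjusted p = 0.0135, 0.00227 and 0.000117). The Tnfrsf4 call was lost without any 1 total tumour array (adjusted p from 0.0632 to 0.0882), and with normexp only Ctla4 was called (adjusted p = 0.0346). Of 11 neutrophil genes listed 7 were kept, and Camp, Ngp, Retnlg and Mmp8 did not pass the filter on dim probes. Among the 7 kept, 3 rose (median 1.92), namely the decoy receptor Il1r2 (3.76, adjusted p = 0.00459), the protease Mmp9 (2.46, adjusted p = 0.000374) and lactoferrin, Ltf (6.32, adjusted p = 2.36e-05). For Il1r2, spleen replicate 2 lay at -3 against 0.94 and 0.52 in spleen replicates 1 and 3. The sum of the 7 genes was 13.4 on total tumour replicate 2, below 18.7 and 15.7 on replicates 1 and 3. Whether neutrophils were the source of these transcripts was not tested. With normexp Ltf was at 3.16 and Mmp9 was not called (adjusted p = 0.0528). The neutrophil alarmins S100a8 (0.27, adjusted p = 0.903) and S100a9 (0.20, adjusted p = 0.948) did not pass. Of 10 dendritic cell genes 2 rose and 4 fell (median -0.36). With normexp 1 rose and 1 fell, the median was 0.12, and the falls of Flt3, Cd209a and Siglech were not called. Fscn1, an actin-bundling protein of mature dendritic cells and some tumour cells, rose by 6.17 (adjusted p = 9.05e-07), 2.74 with normexp, and the integrin Itgax differed by 0.40 (adjusted p = 0.573). Of 3 epithelial genes kept 2 rose, Krt18 (2.30, adjusted p = 0.0305) and Cdh1 (0.94, adjusted p = 0.0433), and Epcam differed by 0.75 (adjusted p = 0.346). Krt18 was at 1.29 without spleen replicate 2 and not called without any 1 total tumour array (adjusted p from 0.0527 to 0.102), Cdh1 was not called without any 1 spleen array, among others (adjusted p from 0.0528 to 0.157), and with normexp 0 of the 3 were called.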
